A study of Mus musculus with 18 samples.

Results

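Y/T dKD+FGF2 cells were compared with Ctrl+vehicle cells at d5 of osteogenic induction, to ask which functions stood at the vehicle level, away from it or beyond it when FGF2 was given to cells with reduced Yap and Taz. The comparison took the 6 libraries of these 2 groups, 3 replicates each, out of 18 libraries of bulk poly(A) RNA-seq, and the 3 Ctrl+FGF2 libraries of the same day served as reference. All were O9-1 cells, a neural crest (NC) line taken from the heads of mouse embryos at E8.5, of wildtype genotype, cultured in osteoblast differentiation medium. Ctrl+vehicle cells received a scramble siRNA (siCtrl) and no FGF2, Ctrl+FGF2 cells the same siRNA with FGF2, and Y/T dKD+FGF2 cells siRNA pools against both Yap1 and Wwtr1, the gene of Taz, with FGF2. The compared groups thus differed in FGF2 and in siRNA at once, and none of the 18 libraries came from Y/T dKD cells without FGF2. The knockdown and the growth factor therefore cannot be told apart in the direct contrast of these groups. O9-1 is 1 cell line, and the sources do not say that the replicates were separate cultures, so p-values measured the spread between these libraries, which may be technical.

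FGF2 binds FGF receptors and activates ERK, whose activity switches on early response genes together with its own inhibitors of the Dusp, Spry and Spred families. Yap and Taz are transcriptional coactivators of the Hippo pathway that bind DNA through Tead factors and promote growth in many cells. An osteoblast forms under Runx2 and Sp7, lays down type I collagen and then mineralizes it with alkaline phosphatase and acidic phosphoproteins.

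The siRNA targets were read first. Yap1 stood at 129, 144 and 138 CPM (normalised read counts, scaled to library size) in the Ctrl+vehicle libraries and at 69.9, 63.0 and 65.8 CPM in the Y/T dKD+FGF2 libraries. Wwtr1 stood at 210.4, 219 and 221 CPM against 115, 119.9 and 116 CPM. Both genes were lower in every Y/T dKD+FGF2 library, with 48.4% and 53.9% of the vehicle level left (log2 fold change -1.05 ± 0.05, adjusted p = 4.6e-11 for Yap1, and -0.89 ± 0.04, adjusted p = 6.6e-12 for Wwtr1). Of the markers of other cell types, those that define blood cells and macrophages (Adgre1, Lyz2, Tyrobp), endothelium (Cdh5, Emcn) and glia (Fabp7) had 0 counts in all 6 libraries. The label of NC cells was only in part borne out at this day, since Sox10 and Foxd3 also had 0 counts, whereas Twist1 had 3089 counts over the 3 Ctrl+vehicle libraries and 10 of 11 osteoblast markers passed the filter on low counts. Chondrocyte markers moved in both directions between the compared groups (4 of 9 tested higher, 5 lower), and their part in any result was not tested.

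Gene counts per library were between 10377151 and 13527647. The 10 most abundant genes held 14.3% to 14.8% of the counts in the Ctrl+vehicle libraries and 11.2% to 11.6% in the Y/T dKD+FGF2 libraries. Among replicates of d5, Ctrl+vehicle replicates 1 and 2 lay farthest apart. Of 32 gene lists, their spread was widest for mitosis and for the amino acid response, both given below with and without them. No libraries were alike enough to be the same library under 2 names. In a principal component analysis of the 500 most variable genes, the first component (59.5% of the variance) ran from the Ctrl+vehicle libraries (-25.3 to -19.1) over Y/T dKD+FGF2 (6.70 to 9.06) to Ctrl+FGF2 (13.5 to 15.7). The second component (29.2%) placed Y/T dKD+FGF2 (-15.7 to -14.0) on the far side of Ctrl+vehicle (2.61 to 2.75) from Ctrl+FGF2 (10.6 to 14.4). The Y/T dKD+FGF2 libraries therefore did not lie on the line between the other groups.

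Of 13304 genes tested, 5564 (41.8%) differed between Y/T dKD+FGF2 and Ctrl+vehicle cells at an adjusted p under 0.05 (edgeR quasi-likelihood test with Benjamini-Hochberg adjustment), and such genes are termed called. Of these, 2751 (20.7%) were higher and 2813 (21.1%) lower in Y/T dKD+FGF2 cells. The changes were mostly small, with a median absolute log2 fold change of 0.35 among called genes, and 642 genes (4.83%) were called and changed at least 2-fold. For 51.9% of genes the 3 libraries of one group all lay on one side of the other group. The same counts for Ctrl+FGF2 against Ctrl+vehicle cells were 6278 called (47.2%, 23.5% higher and 23.7% lower), 5.80% called with at least 2-fold change and 54.3% without overlap. With Ctrl+FGF2 in place of vehicle, Y/T dKD+FGF2 had 4220 called (31.7%, 15.6% higher and 16.1% lower), 3.19% at least 2-fold and 44.9% without overlap. The 3 contrasts share libraries, so their values are set side by side here as a description. The median log2 fold change over all genes tested was 0.0072 between the compared groups, which is the level the medians of gene lists below are read against. Counts of called members below are likewise read against the 41.8% of all genes, 20.7% higher and 21.1% lower. Values after ± are the standard error (SE) for a log2 fold change and the SD over 3 libraries for a level.

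The vehicle state was regained by few of the genes that FGF2 had moved most. Of the 771 genes called with at least 2-fold change in Ctrl+FGF2 against Ctrl+vehicle cells, 546 (70.8%) stayed away from vehicle, meaning that Y/T dKD+FGF2 was also called against Ctrl+vehicle with the same sign. Another 18 (2.33%) lay beyond vehicle, called with the opposite sign. Only 25 (3.24%) lay near vehicle, that is, not called and with the 95% interval of the log2 fold change inside 0.5 on either side of 0, and the remaining 182 (23.6%) could not be placed. Within the 546 genes away from vehicle, 224 had been moved part of the way back (called against Ctrl+FGF2 towards vehicle), 277 were not called against Ctrl+FGF2 and 45 stood still further out. Of the 182 genes that could not be placed, 122 were likewise called against Ctrl+FGF2 towards vehicle and 60 were not called. All 18 genes beyond vehicle and all 25 near it were called in that direction as well. The median size of the change of the 771 genes was 1.43 on the log2 scale with FGF2 alone and, counted in the same direction, 0.89 in Y/T dKD+FGF2 cells. Over all 6278 genes called for FGF2, whatever their size, 3643 (58.0%) lay away, 290 (4.62%) beyond and 1849 (29.5%) near vehicle. Of these 1849 genes, 693 were not called against Ctrl+FGF2. A change by FGF2 under 0.5 can lie inside the limit without any return. The classes rest on the same Ctrl+vehicle libraries in both contrasts, which pushes genes towards the class away from vehicle, and they carry no test.

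**Figure D1:**
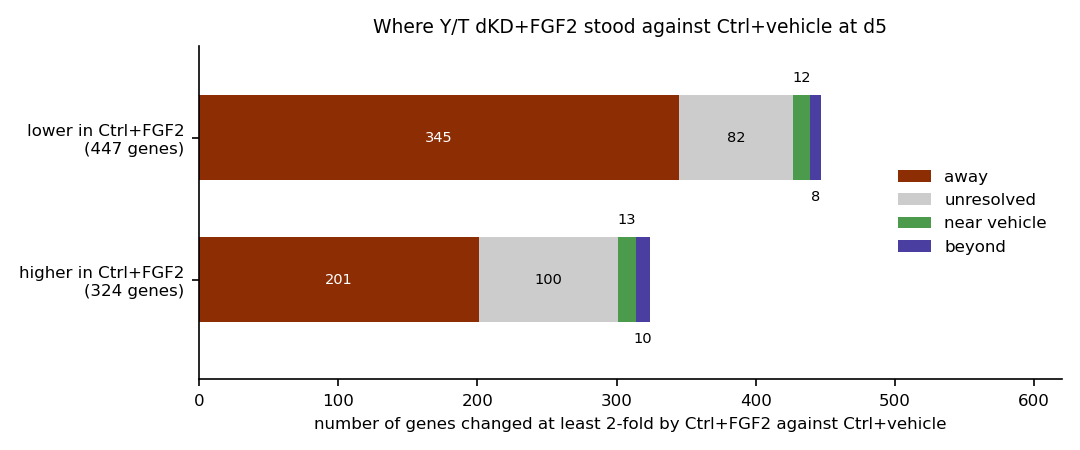
Numbers of genes (x axis) that changed at least 2-fold in Ctrl+FGF2 against Ctrl+vehicle cells at d5, split by where Y/T dKD+FGF2 stood against Ctrl+vehicle. Of 447 genes lower in Ctrl+FGF2, 345 stayed away from vehicle, 12 lay near it and 8 beyond it, and of 324 genes higher in Ctrl+FGF2 the numbers were 201, 13 and 10.

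**Figure D2:**
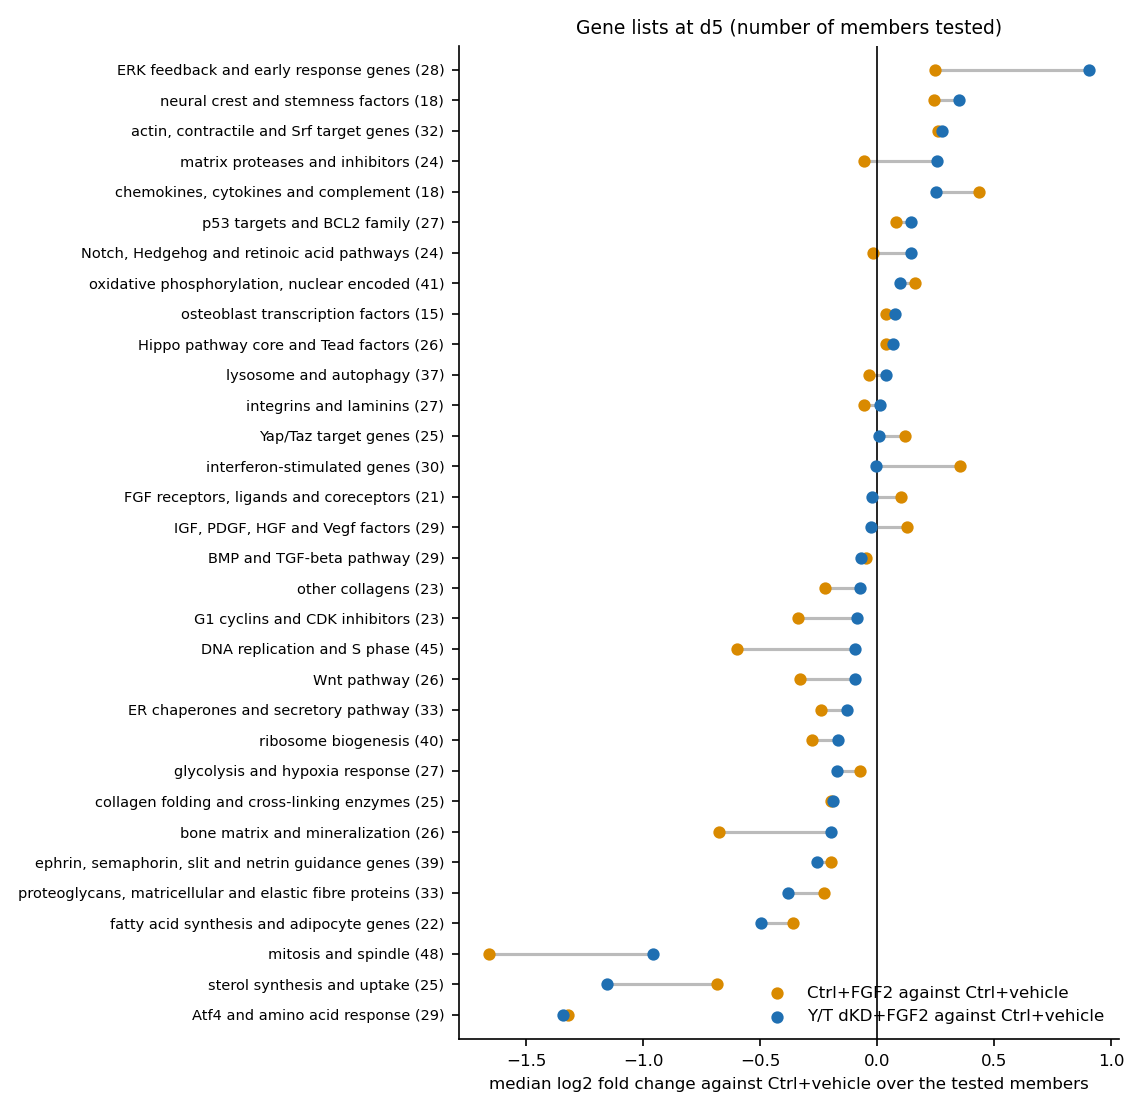
Median log2 fold change (x axis) of 32 gene lists (rows, with the number of members tested) against Ctrl+vehicle at d5, for Ctrl+FGF2 (orange) and Y/T dKD+FGF2 (blue). Sterol synthesis (-0.68 and -1.15) and ERK feedback (0.24 and 0.91) lay further from vehicle in Y/T dKD+FGF2 than in Ctrl+FGF2 cells, while DNA replication (-0.60 and -0.09) and bone matrix (-0.68 and -0.20) lay nearer.

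Genes of the amino acid response stayed far below vehicle, about where FGF2 alone had put them. This list holds Atf4, the transcription factor of the integrated stress response, and its targets for amino acid uptake, serine synthesis and tRNA charging. Of 29 members tested, 27 were lower and 1 higher in Y/T dKD+FGF2 than in Ctrl+vehicle cells, with a median log2 fold change of -1.34, close to the -1.32 of Ctrl+FGF2 (25 lower). Against Ctrl+FGF2, 2 members were higher and 3 lower, and all 19 members that FGF2 had lowered at least 2-fold lay away from vehicle. Trib3, a pseudokinase induced by Atf4, was at 64.7, 32.1 and 47.4 CPM in the Ctrl+vehicle libraries, at 1.56, 5.53 and 3.74 CPM with FGF2 and at 2.09, 1.32 and 1.24 CPM in the Y/T dKD+FGF2 libraries. It was 30.2-fold lower than in Ctrl+vehicle (log2 fold change -4.92 ± 0.32, adjusted p = 1.5e-09), the largest fall of any protein-coding gene whose mean log2 CPM was 1 or more. Chac1, which degrades glutathione, went from 30.04, 16.5 and 26.8 CPM to 2.57, 1.87 and 1.81 CPM (log2 fold change -3.52 ± 0.25, adjusted p = 4.5e-09). Slc6a9, a glycine transporter, and Aldh1l2, a mitochondrial enzyme of folate metabolism, are no members of the list (-3.35 ± 0.29 and -4.08 ± 0.21). Both were named for being among the largest falls of this contrast, so their steep fall follows from that choice and adds nothing on the list. The exception was Atf3, an early stress factor, which rose from 10.9 ± 0.473 to 18.5 ± 1.61 CPM (log2 fold change 0.76 ± 0.13, adjusted p = 1.4e-04) and was not called in Ctrl+FGF2. In all 4 falling genes named here, Ctrl+vehicle replicate 1 was highest and replicate 2 lowest. Without replicate 1 the list had 27 lower members and a median of -1.18, and without replicate 2 it had 27 and -1.52.

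Mitosis genes went part of the way back. The list holds kinesins, centromere proteins, condensin subunits and the kinases of cell division. All 48 members were tested, 44 were lower and none higher in Y/T dKD+FGF2 than in Ctrl+vehicle cells, and the median log2 fold change was -0.96 against -1.66 for Ctrl+FGF2 (47 lower). Against Ctrl+FGF2, 27 members were higher and none lower. Of 45 members that FGF2 had lowered at least 2-fold, 42 lay away from vehicle and 3 could not be placed. Mki67, which encodes the proliferation marker Ki-67, was at 102, 59.5 and 81.9 CPM in the Ctrl+vehicle libraries, at 33.7, 13.4 and 23.7 CPM with FGF2 and at 32.3, 40.3 and 39.3 CPM in Y/T dKD+FGF2. The Y/T dKD+FGF2 libraries were all below the Ctrl+vehicle libraries and overlapped with the Ctrl+FGF2 libraries (log2 fold change -1.11 ± 0.19, adjusted p = 1.7e-04 against vehicle, and 0.68 ± 0.23, adjusted p = 0.0315 against Ctrl+FGF2). Spc25, a kinetochore subunit, and Nusap1, which bundles spindle microtubules, showed the largest falls of the list (-1.38 ± 0.23 and -1.35 ± 0.22). In bulk RNA, fewer dividing cells and less mitotic RNA per cell cannot be told apart. The spread between vehicle libraries was widest here. The median level of the list, relative to the mean of Ctrl+vehicle, was 0.38, -0.40 and 0.03 in the Ctrl+vehicle libraries and -1.07, -0.79 and -0.87 in the Y/T dKD+FGF2 libraries, so the groups did not overlap. Without Ctrl+vehicle replicate 1, 41 members were lower with a median of -0.76, and without replicate 2, 46 were lower with a median of -1.17.

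DNA replication genes, by contrast, mostly lay near vehicle when every member lowered by FGF2 was counted, whatever the size of its fall. The list holds the Mcm helicase, the origin and polymerase subunits and the enzymes of nucleotide supply, and FGF2 had lowered 38 of its 45 members (median -0.60, none higher). In Y/T dKD+FGF2 cells 9 members were lower and 1 higher than in Ctrl+vehicle (22.2% called, against 41.8% of all genes), with a median of -0.09 (-0.0276 without Ctrl+vehicle replicate 1 and -0.17 without replicate 2), and 29 were higher than in Ctrl+FGF2. Of the 38 members lowered by FGF2, 22 lay near vehicle, 9 away, 1 beyond and 6 could not be placed. Only 9 members had been lowered at least 2-fold, the limit used for mitosis. Of these, 4 lay away from vehicle, 1 near it and 4 could not be placed. Members that FGF2 lowered by less than 0.5 can lie near vehicle without any return. Rrm2, the small subunit of ribonucleotide reductase, fell most, from 66.0, 41.2 and 50.1 CPM to 28.9, 27.6 and 26.1 CPM (log2 fold change -0.92 ± 0.16, adjusted p = 1.9e-04). Cdt1, which licenses origins, was the member above vehicle (11.9 ± 0.387 against 15.6 ± 0.143 CPM, log2 fold change 0.39 ± 0.09, adjusted p = 0.00241). The replication factor gene Mcm10 fell as well (-0.63 ± 0.21, adjusted p = 0.0246), a call that was lost without Ctrl+vehicle replicate 1 or 3 or Y/T dKD+FGF2 replicate 1 or 3. The count of lower members depended on Ctrl+vehicle replicate 2, since it was 14 without that library. Ribosome biogenesis had 29 of 40 members lower in Ctrl+FGF2 (median -0.28). In Y/T dKD+FGF2, 17 were lower and 2 higher than in vehicle (47.5% called, near the 41.8% of all genes, median -0.17). This median was -0.0995 without Ctrl+vehicle replicate 1, and 20 members were higher than in Ctrl+FGF2. Of its 29 members lowered by FGF2, 16 lay away from vehicle and 13 near it. The median of -0.28 in Ctrl+FGF2 was already inside the limit of 0.5, so the class near vehicle does not by itself show a return here. Gnl3, which encodes nucleostemin, stood at 102 ± 7.56 CPM in vehicle, 51.3 ± 4.13 CPM with FGF2 alone and 70.1 ± 2.29 CPM in Y/T dKD+FGF2 cells, and Nop56 fell likewise against vehicle (-0.48 ± 0.07). Noc4l and Nob1 were the members that rose (0.41 ± 0.10 and 0.24 ± 0.08), the latter not called without Ctrl+vehicle replicate 2 or 3 or Y/T dKD+FGF2 replicate 1. Among G1 regulators, 7 of 23 were lower than in vehicle and 5 higher (52.2% called, against 41.8% of all genes). The higher ones numbered 2 without Ctrl+vehicle replicate 1 or Y/T dKD+FGF2 replicate 3. Ccnd2, which encodes cyclin D2, and the CDK inhibitor gene Cdkn2c fell (-1.08 ± 0.10 and -0.74 ± 0.14). Cdk6, a kinase partner of cyclin D, rose (log2 fold change 0.26 ± 0.09, adjusted p = 0.0217), and this call was lost without Ctrl+vehicle replicate 1 or 3 or Y/T dKD+FGF2 replicate 3. Cdkn1c, a CDK inhibitor, was 15.2 ± 0.209 CPM in vehicle, 40.6 ± 4.39 CPM with FGF2 and 19.0 ± 0.808 CPM in Y/T dKD+FGF2, so that most of its rise with FGF2 was gone (log2 fold change 0.33 ± 0.09, adjusted p = 0.00865 against vehicle). Cdk4 rose slightly (0.25 ± 0.03, adjusted p = 1.3e-05).

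**Figure D3:**
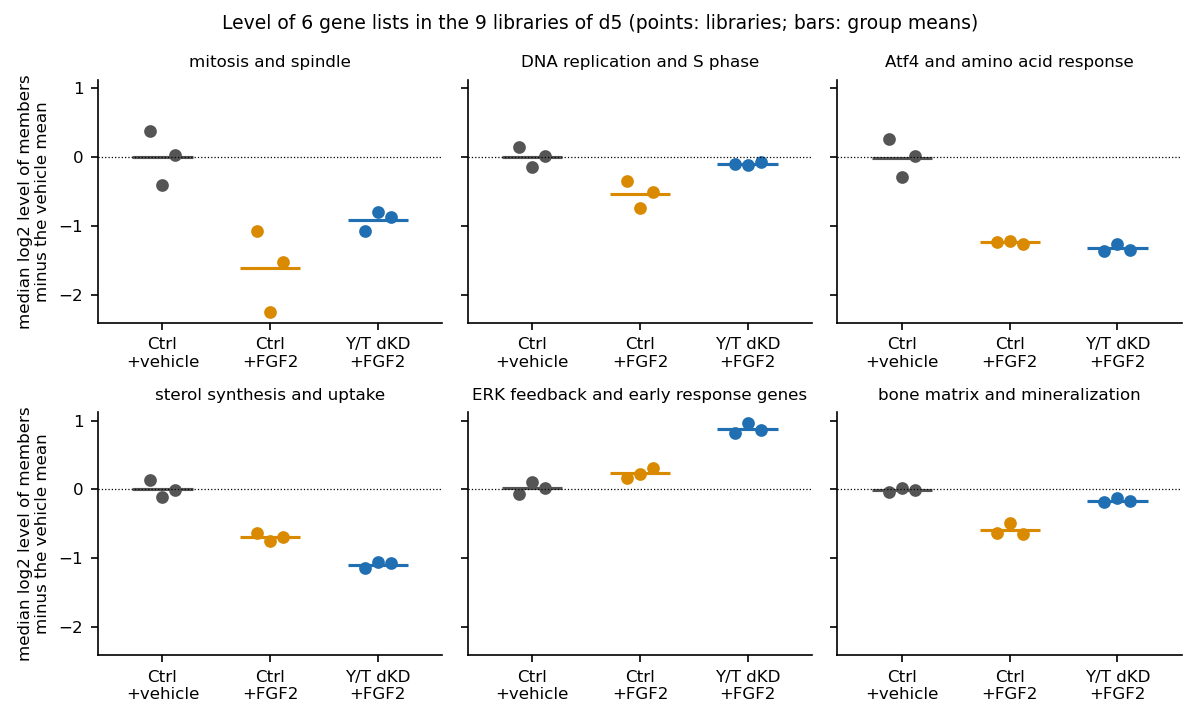
Level of 6 gene lists in each of the 9 libraries of d5, where the y axis is the median over members of the log2 level minus the Ctrl+vehicle mean, points are libraries and bars group means. In mitosis the Ctrl+vehicle libraries spread from -0.40 to 0.38 and lay above all Y/T dKD+FGF2 libraries (-1.07 to -0.79), and in ERK feedback the Y/T dKD+FGF2 libraries lay above all others.

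Sterol synthesis went further down than with FGF2 alone. This list holds the enzymes from acetyl-CoA to cholesterol and the Srebp system that controls them. Of 25 members, 22 were lower and 1 higher in Y/T dKD+FGF2 than in Ctrl+vehicle cells, with a median log2 fold change of -1.15, whereas Ctrl+FGF2 had 19 lower and a median of -0.68. Against Ctrl+FGF2, 20 members were lower and 1 higher, and 18 were called lower than both other groups. Msmo1, a sterol demethylase, was at 153, 117 and 135 CPM in the Ctrl+vehicle libraries, at 68.6, 55.5 and 61.0 CPM with FGF2 and at 32.1, 34.3 and 30.7 CPM in Y/T dKD+FGF2. The 3 groups did not overlap, and Msmo1 fell 4.15-fold below vehicle (log2 fold change -2.05 ± 0.09, adjusted p = 1.0e-11) and below Ctrl+FGF2 (-0.92 ± 0.10, adjusted p = 1.0e-06). The exception was Ebp, a sterol isomerase, which was slightly higher (0.14 ± 0.05, adjusted p = 0.0268), a call that was lost without Ctrl+vehicle replicate 2 or 3 or any Y/T dKD+FGF2 replicate. Fatty acid genes went the same way in part, with 15 of 22 lower and 4 higher than in vehicle (median -0.50, against -0.36 in Ctrl+FGF2). The desaturases Fads1 and Fads2 fell (-1.44 ± 0.06 and -1.46 ± 0.07), while Plin2, which coats lipid droplets, rose from 137 ± 9.08 to 214 ± 11.5 CPM (log2 fold change 0.64 ± 0.06, adjusted p = 6.1e-08). Cebpd, an early factor of fat cell formation, rose with FGF2 and in Y/T dKD+FGF2 (0.92 ± 0.10 and 0.67 ± 0.10).

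For the sterol, amino acid response, mitosis and DNA replication lists, the 250 bases before the starts of members were searched on both strands. The search took 1 motif per list (RefSeq starts on GRCm38.p6, 1 window per gene). The sterol regulatory element TCACNCCAC was in 1 of 17 members with a window, against 1.03% of all 27025 windows, for the sterol list. The response element of C/EBP and ATF factors, TGATGNAA, was in 8 of 25 members with a window, against 3.53% of all 27025 windows, for the amino acid response. The cell cycle genes homology region TTTGAA was in 14 of 40 members with a window, against 16.3% of all 27025 windows, for the mitosis list. The E2F motif TTTNNCGC was in 9 of 37 members with a window, against 4.396% of all 27025 windows, for the DNA replication list. The motifs differ and were counted separately, so any overlap between matches counted for each. Members with and without the motif had similar median log2 fold changes in the amino acid response (-1.39 and -1.37) and mitosis (-0.99 and -0.95). These were -0.09 and -0.14 in DNA replication, and -1.35 for the 1 sterol member with it against -1.06. The sequences below belong to called members with a match and no annotated exon inside the window, at most 2 per list by the largest fall, and were picked after their values were seen. The matching letters are in capitals, and a match does not show that the site is bound. The bases after the starts shown did not match the opening of a GENCODE M21 transcript of the gene, so the exact starts are uncertain. The windows are Hmgcs1 (chr13:119690101-119690350, plus strand), Gars (chr6:55037751-55038000, plus strand, with the motif on the opposite strand), Mki67 (chr7:135716380-135716629, minus strand, with 2 matches) and Ccnb2 (chr9:70421555-70421804, minus strand).
Hmgcs1: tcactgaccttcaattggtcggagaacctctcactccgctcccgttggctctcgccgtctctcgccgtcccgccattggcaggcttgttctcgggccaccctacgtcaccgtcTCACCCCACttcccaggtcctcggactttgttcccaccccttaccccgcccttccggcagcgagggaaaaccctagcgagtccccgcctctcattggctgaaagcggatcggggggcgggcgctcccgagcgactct
Gars: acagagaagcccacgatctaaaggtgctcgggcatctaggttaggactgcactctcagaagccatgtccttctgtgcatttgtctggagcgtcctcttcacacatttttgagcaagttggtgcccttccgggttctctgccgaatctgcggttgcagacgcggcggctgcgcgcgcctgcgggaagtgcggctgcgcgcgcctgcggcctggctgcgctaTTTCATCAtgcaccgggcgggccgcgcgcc
Mki67: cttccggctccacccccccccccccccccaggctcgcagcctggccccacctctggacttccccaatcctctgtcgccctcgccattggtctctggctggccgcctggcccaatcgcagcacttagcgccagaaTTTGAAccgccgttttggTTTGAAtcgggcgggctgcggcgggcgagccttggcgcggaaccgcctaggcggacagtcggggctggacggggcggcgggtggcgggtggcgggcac
Ccnb2: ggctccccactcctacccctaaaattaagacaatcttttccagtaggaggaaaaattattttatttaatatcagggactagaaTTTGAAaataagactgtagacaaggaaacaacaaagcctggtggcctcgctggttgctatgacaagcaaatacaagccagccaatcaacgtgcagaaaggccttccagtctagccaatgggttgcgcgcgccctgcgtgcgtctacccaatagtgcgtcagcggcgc
Hmgcs1, which makes the precursor of mevalonate, fell from 377, 340.2 and 336 to 137, 138 and 137 CPM (log2 fold change -1.35 ± 0.05, adjusted p = 9.3e-13). Gars, which charges glycine to its tRNA, fell from 356, 245 and 297 to 125, 125 and 129.9 CPM (log2 fold change -1.24 ± 0.09, adjusted p = 3.5e-09). Ccnb2, which encodes cyclin B2, fell from 18.7, 12.1 and 15.8 to 6.75, 8.25 and 6.30 CPM (log2 fold change -1.11 ± 0.19, adjusted p = 1.4e-04).

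ERK feedback and early response genes rose beyond their level with FGF2 alone. Of 28 members, 23 were higher and none lower in Y/T dKD+FGF2 than in Ctrl+vehicle cells (median log2 fold change 0.91), whereas Ctrl+FGF2 had 15 higher and 4 lower (median 0.24). Against Ctrl+FGF2, 20 members were higher and 1 lower, and 18 were called higher than both other groups. Etv4, an Ets factor induced by FGF, was at 1.98, 5.44 and 4.95 CPM in the Ctrl+vehicle libraries, at 10.8, 9.14 and 9.85 CPM with FGF2 and at 29.4, 28.6 and 27.3 CPM in Y/T dKD+FGF2. The groups did not overlap, and the rise was 6.73-fold (log2 fold change 2.75 ± 0.17, adjusted p = 6.0e-10). Dusp4, a phosphatase of ERK, was at 2.55, 3.34 and 2.27 CPM against 8.52, 8.33 and 8.59 CPM (log2 fold change 1.63 ± 0.16, adjusted p = 1.9e-07) and was not called in Ctrl+FGF2 (-0.26 ± 0.20, adjusted p = 0.317). Fosl1, an AP-1 subunit, likewise rose against vehicle (5.25 ± 0.0516 to 10.1 ± 1.12 CPM, log2 fold change 0.94 ± 0.16, adjusted p = 1.5e-04) but not with FGF2 alone (-0.24 ± 0.19, adjusted p = 0.307). Myc differed from the rest, at 39.4, 32.3 and 29.5 CPM in Ctrl+vehicle and 29.5, 27.8 and 28.7 CPM in Y/T dKD+FGF2, with the groups barely apart and no call (log2 fold change -0.23 ± 0.10, adjusted p = 0.0784), while Ctrl+FGF2 was lower (-0.81 ± 0.11). Myc was called lower without Ctrl+vehicle replicate 3 (-0.32) or Ctrl+FGF2 replicate 2 and in the fits of 6 or 18 libraries (-0.23). Of FGF receptors, ligands and coreceptors, 7 of 21 were higher and 9 lower than in vehicle (76.2% called, against 41.8% of all genes). Fgfr3 rose (log2 fold change 0.57 ± 0.12, adjusted p = 0.00104), and Fgf18, a ligand of bone and suture, fell from 5.43 ± 1.60 to 2.28 ± 0.703 CPM (log2 fold change -1.28 ± 0.23, adjusted p = 2.6e-04) although it was not called in Ctrl+FGF2. Gpc6, a heparan sulfate proteoglycan, fell (-0.86 ± 0.06) and Sdc3, another, rose (0.53 ± 0.05).

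**Figure D4:**
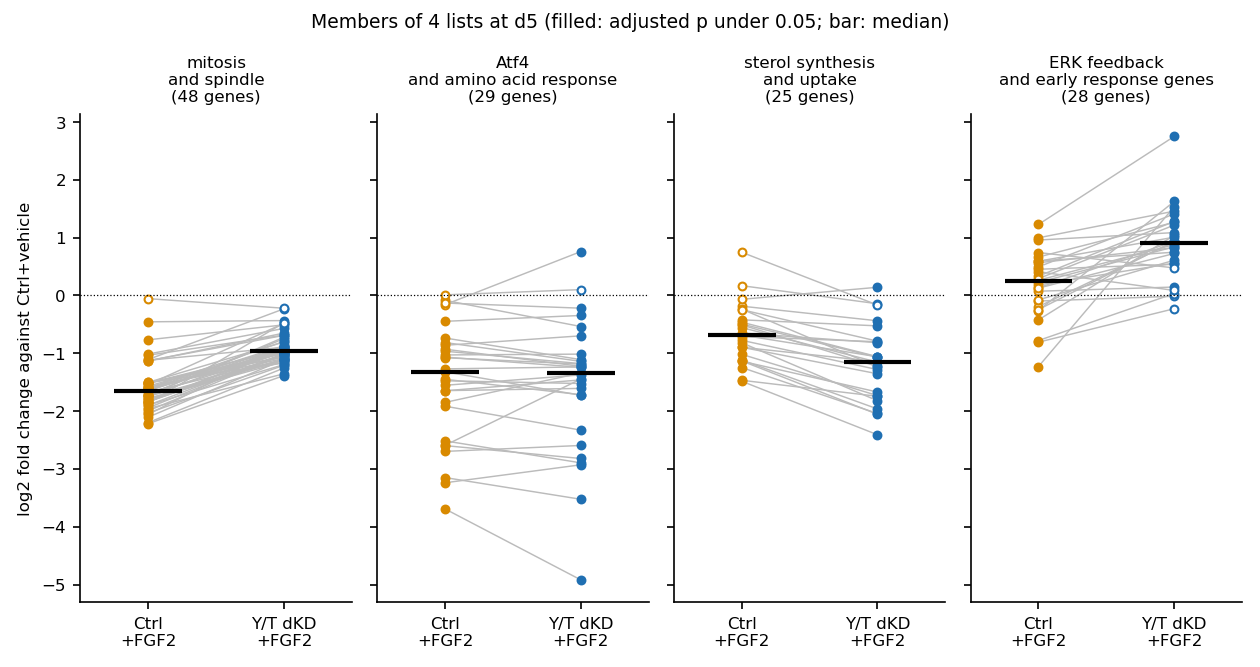
Log2 fold change against Ctrl+vehicle at d5 (y axis) of each member of 4 lists in Ctrl+FGF2 (orange) and Y/T dKD+FGF2 (blue), joined per gene, with filled points at an adjusted p under 0.05 and bars for medians. Median values moved from -1.66 to -0.96 in mitosis, from -1.32 to -1.34 in the amino acid response, from -0.68 to -1.15 in sterol synthesis and from 0.24 to 0.91 in ERK feedback.

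Genes of bone split into those below and those above vehicle. Of 26 tested members of the list of bone matrix and mineralization, 12 were lower and 11 higher than in Ctrl+vehicle cells (median -0.20), against 15 lower and 9 higher in Ctrl+FGF2 (median -0.68), and 16 were higher and 5 lower than in Ctrl+FGF2. The shorter list of osteoblast markers, which shares members with it, had 6 of 10 tested higher and 3 lower than in vehicle (median 0.53). Against Ctrl+FGF2, 9 of these markers were higher and none lower (median 0.72). The collagen gene Col1a1 stood at 29855 ± 1166 CPM in vehicle, 15707 ± 957 CPM with FGF2 and 20520.2 ± 649 CPM in Y/T dKD+FGF2 cells. It was regained in part, 1.45-fold below vehicle (log2 fold change -0.54 ± 0.04, adjusted p = 2.5e-08) and above Ctrl+FGF2 (0.39 ± 0.04). Alpl, which encodes alkaline phosphatase, was at 159, 143 and 154 CPM in vehicle, at 63.0, 43.6 and 47.8 CPM with FGF2 and at 81.6, 95.3 and 86.2 CPM in Y/T dKD+FGF2 and also stayed between them (log2 fold change -0.79 ± 0.09, adjusted p = 8.3e-07 against vehicle). Omd, which encodes osteomodulin, was 1.99-fold lower than in vehicle and slightly lower than with FGF2 (-0.15 ± 0.05 against Ctrl+FGF2). Bglap, which encodes osteocalcin, had only 89 and 64 counts over the libraries of the compared groups and could not be placed (log2 fold change -0.49 ± 0.25, adjusted p = 0.134, 95% interval -1.02 to 0.04), although it was called lower without Ctrl+vehicle replicate 3 (-0.72). Its near-identical neighbours make its counts uncertain, since reads that fit several copies could be split or left out.

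Above vehicle stood genes for acidic phosphoproteins and for pyrophosphate. Dmp1, a matrix protein of osteocytes, was at 1.70, 2.02 and 1.09 CPM in the Ctrl+vehicle libraries, at 6.41, 5.68 and 5.52 CPM with FGF2 and at 48.9, 62.7 and 55.2 CPM in the Y/T dKD+FGF2 libraries. No groups overlapped, and the rise of 34.3-fold over vehicle (log2 fold change 5.10 ± 0.15, adjusted p = 1.1e-13) was the largest among such genes. Ibsp, which encodes bone sialoprotein, was at 82.6, 133 and 105 CPM in vehicle, at 44.2, 20.8 and 28.5 CPM with FGF2 and at 127, 172 and 161 CPM in Y/T dKD+FGF2, so that FGF2 lowered it and Y/T dKD+FGF2 lay beyond vehicle, although 1 library of each compared group overlapped (log2 fold change 0.51 ± 0.16, adjusted p = 0.0150). That call was lost with DESeq2 (0.51) and without Ctrl+vehicle replicate 1 or 3 or Y/T dKD+FGF2 replicate 2 or 3 (0.36 to 0.50). Both genes lie on chromosome 5 beside Mepe and Spp1 (Dmp1 from 104202613, Spp1 to 104441050, GENCODE M21 on GRCm38), and these neighbours, looked at after their values were seen, were higher too (2.61 ± 0.75 and 1.07 ± 0.07). Mepe had only 6 counts in the Ctrl+vehicle group and 39 in the Y/T dKD+FGF2 group. Enpp1, which makes pyrophosphate, an inhibitor of mineral, rose from 5.19, 6.99 and 5.96 to 19.5, 23.1 and 23.8 CPM (log2 fold change 1.86 ± 0.12, adjusted p = 1.2e-09) and was not called in Ctrl+FGF2.

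Among osteoblast transcription factors, 5 of 15 were higher and 7 lower than in vehicle (median 0.08, which was -0.17 without the filter on low counts, with more members tested). Runx2 was at 118, 140.2 and 125 CPM in Ctrl+vehicle and 182, 189 and 191 CPM in Y/T dKD+FGF2 (log2 fold change 0.55 ± 0.05, adjusted p = 1.8e-07), and Ctrl+FGF2 lay above vehicle as well (0.40 ± 0.05). Sp7 rose from 31.4, 36.6 and 32.4 to 65.3, 66.0 and 66.2 CPM (log2 fold change 0.97 ± 0.09, adjusted p = 1.0e-07). Both master regulators were therefore higher than in Ctrl+vehicle cells while Col1a1 and Alpl were lower. Dlx5, a homeobox factor of bone, fell (2.94 ± 0.458 to 1.31 ± 0.403 CPM, log2 fold change -1.14 ± 0.24, adjusted p = 0.00105) as it did with FGF2. Zfp521, a zinc finger antagonist of Runx2, fell from 42.5, 43.3 and 40.9 to 21.7, 20.7 and 20.5 CPM (log2 fold change -1.01 ± 0.07, adjusted p = 2.5e-09), with no call in Ctrl+FGF2 (0.03 ± 0.06, adjusted p = 0.722). Twist2, which restrains osteoblast formation, rose (log2 fold change 1.21 ± 0.17, adjusted p = 2.0e-05).

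**Figure D5:**
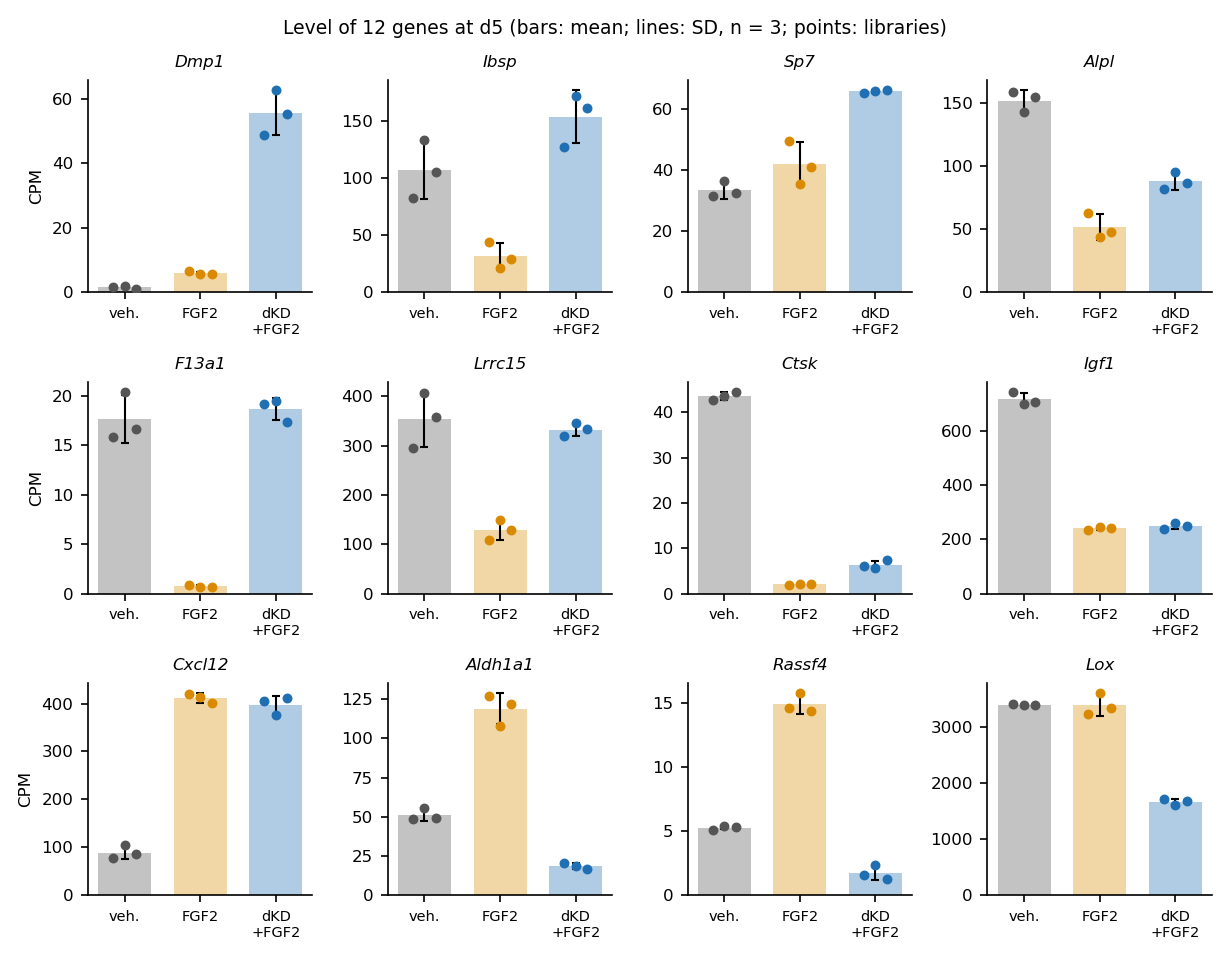
Normalized CPM (y axes, each from 0) of 12 genes in Ctrl+vehicle (grey), Ctrl+FGF2 (orange) and Y/T dKD+FGF2 (blue) at d5, with bars for means, lines for the SD of 3 libraries and points for libraries. Dmp1 and Sp7 were highest in Y/T dKD+FGF2, F13a1 and Lrrc15 were back at vehicle, Ctsk, Igf1 and Cxcl12 stayed away from vehicle, Aldh1a1 and Rassf4 fell beyond vehicle, and Lox was lowest in Y/T dKD+FGF2.

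Among the genes that FGF2 had changed at least 2-fold, those that returned to vehicle were few. F13a1, a subunit of coagulation factor XIII, was at 15.9, 20.4 and 16.6 CPM in the Ctrl+vehicle libraries, at 0.866, 0.691 and 0.679 CPM with FGF2 and at 19.1, 19.5 and 17.4 CPM in Y/T dKD+FGF2. The Y/T dKD+FGF2 values lay within the range of the Ctrl+vehicle libraries, and the 95% interval of the log2 fold change was -0.13 to 0.29. Lrrc15, a surface protein of fibroblasts and bone cells, behaved alike (354 ± 56.1, 129 ± 20.8 and 333 ± 12.9 CPM, interval -0.29 to 0.11), although it was called lower without Ctrl+vehicle replicate 1 (-0.21). So did Col24a1, a collagen of bone (-1.73 ± 0.11 with FGF2, -0.20 ± 0.09 in Y/T dKD+FGF2), and Cd33 (-1.98 ± 0.19 and -0.13 ± 0.15). Gfra2, a receptor of neurturin, rose with FGF2 to 138, 116 and 130.0 CPM and stood at 44.4, 37.8 and 38.4 CPM in Y/T dKD+FGF2 against 46.0, 43.9 and 46.8 CPM in vehicle (log2 fold change -0.18 ± 0.08, adjusted p = 0.0661). Gfra2 was just below vehicle in other fits, called at -0.18 in the fit of the 6 libraries and at -0.26 without Y/T dKD+FGF2 replicate 1. Epb41l4b, Adhfe1 and the plakin gene Ppl completed the named genes raised by FGF2 and near vehicle, with intervals of -0.21 to 0.34, -0.46 to 0.46 and -0.38 to 0.25. Of 30 interferon-stimulated genes, 14 were higher with FGF2 (median 0.35), and 4 were higher and 5 lower in Y/T dKD+FGF2 (9 of 30 called, against 41.8% of all genes, median -0.01), while 14 were lower than in Ctrl+FGF2. Of the 14 members raised by FGF2, 4 lay near vehicle, 3 away and 1 beyond, and 6 could not be placed. The list median of 0.35 in Ctrl+FGF2 was itself inside the limit of 0.5, so the class near vehicle alone does not show a return. Ifit2, an antiviral gene, passed below vehicle (37.0 ± 0.738, 47.7 ± 4.94 and 25.1 ± 1.97 CPM, log2 fold change -0.56 ± 0.08, adjusted p = 1.9e-05), and Xaf1 was below vehicle as well (-0.82 ± 0.22). Gbp2, a guanylate-binding protein, and Parp14 stayed up (0.70 ± 0.16 and 0.42 ± 0.13), the latter not called without Ctrl+vehicle replicate 2 or Y/T dKD+FGF2 replicate 2 or 3. Ifit2 and Gbp2 belong to families with similar sequences, so their counts are uncertain.

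Beyond vehicle lay genes that FGF2 and the combined treatment moved to opposite sides. C3, the central complement protein, was at 7.46, 7.46 and 7.64 CPM in vehicle, 31.8, 24.4 and 27.8 CPM with FGF2 and 4.90, 5.84 and 4.20 CPM in Y/T dKD+FGF2 (log2 fold change -0.58 ± 0.16, adjusted p = 0.00592). Rassf4, a Ras association protein, was at 5.10, 5.36 and 5.29 CPM in vehicle, 14.5, 15.7 and 14.3 CPM with FGF2 and 1.53, 2.34 and 1.24 CPM in Y/T dKD+FGF2, the farthest below vehicle of the 4 largest such risers (log2 fold change -1.60 ± 0.19, adjusted p = 3.5e-06). Aldh1a1, which makes retinoic acid, rose with FGF2 to 127, 108 and 122 CPM and was at 20.4, 18.8 and 16.8 CPM in Y/T dKD+FGF2 against 48.7, 55.7 and 49.5 CPM in vehicle (log2 fold change -1.45 ± 0.09, adjusted p = 4.4e-10). For these genes no library of one group overlapped with another group. Aoc3, an amine oxidase, and Wwc1, which encodes the Hippo regulator Kibra, followed with smaller falls (-0.95 ± 0.24 and -0.37 ± 0.14). The call of Wwc1 was lost with DESeq2 (-0.38) and without any of 6 libraries taken singly, among them each Ctrl+vehicle replicate (-0.41 to -0.33). In the other direction, Mmp10, a stromelysin, was at 14.8, 24.2 and 19.0 CPM in vehicle, 5.63, 11.8 and 7.39 CPM with FGF2 and 37.6, 37.0 and 40.9 CPM in Y/T dKD+FGF2 (log2 fold change 0.97 ± 0.15, adjusted p = 4.8e-05). Hgf, which encodes hepatocyte growth factor, rose 6.64-fold over vehicle, from 0.661, 1.01 and 1.09 to 5.79, 6.07 and 6.97 CPM (log2 fold change 2.73 ± 0.21, adjusted p = 1.2e-08), while FGF2 had lowered it, with only 33 and 15 counts over the libraries without and with FGF2 alone. Shroom2 and Nmnat2 were also above vehicle after a fall with FGF2 (0.42 ± 0.12 and 0.61 ± 0.12), Shroom2 without a call in DESeq2 (0.41).

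The genes that FGF2 changed most and that stayed away included Wif1, a secreted Wnt inhibitor, at 40.0, 26.7 and 32.1 CPM in Ctrl+vehicle, 1.73, 0.0768 and 0.849 CPM with FGF2 and 3.78, 10.2 and 5.44 CPM in Y/T dKD+FGF2 (log2 fold change -2.32 ± 0.25, adjusted p = 7.6e-07). Ctsk, which encodes the collagen-degrading cathepsin K, was at 42.8, 43.5 and 44.6 CPM in vehicle, 1.82, 2.15 and 2.04 CPM with FGF2 and 6.03, 5.60 and 7.35 CPM in Y/T dKD+FGF2 (log2 fold change -2.80 ± 0.09, adjusted p = 3.6e-13), with a step back towards vehicle (1.64 ± 0.16 against Ctrl+FGF2). Itga4, an integrin of migrating NC cells, remained 11.5-fold lower (13.6 ± 2.03 to 1.18 ± 0.402 CPM), and the protease gene Prss35 remained 4.71-fold lower. Of the genes raised by FGF2, Angpt2, a ligand of the Tie2 receptor, was at 3.40, 4.89 and 5.62 CPM in vehicle, 37.8, 27.3 and 32.4 CPM with FGF2 and 19.0, 18.2 and 17.1 CPM in Y/T dKD+FGF2 (log2 fold change 1.95 ± 0.16, adjusted p = 2.3e-08). Nrgn and Trp53i11 kept most of their rise at low counts (2.39 ± 0.34 and 1.77 ± 0.36), and Chdh kept little (3.003 with FGF2, 0.91 ± 0.32 in Y/T dKD+FGF2, not called without Ctrl+vehicle replicate 1 or 3 or Y/T dKD+FGF2 replicate 1 or 2). The remaining large changes against vehicle were rises of March4 (4.34 ± 0.26), Nptx1 (4.10 ± 0.33), the potassium channel gene Kcnk3 (3.59 ± 0.23), Igfbp5 (3.31 ± 0.32), which binds insulin-like growth factors, and Agt (2.50 ± 0.20), the precursor of angiotensin. Counts of March4, Nptx1 and Igfbp5 were low in Ctrl+vehicle, at 0.306 ± 0.150, 0.220 ± 0.155 and 0.464 ± 0.179 CPM. The large falls were those of Pdzd2 (-3.95 ± 0.27), the semaphorin receptor gene Plxnc1 (-3.08 ± 0.14) and Scube1 (-2.94 ± 0.36).

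Some genes changed against vehicle without a call for FGF2. There were 1631 such genes, 159 of them at least 2-fold, and 966 of the 1631 were also called against Ctrl+FGF2. Lox, which cross-links collagen, was at 3401, 3383 and 3382 CPM in Ctrl+vehicle, 3234, 3603 and 3339 CPM with FGF2 and 1715, 1601 and 1674 CPM in Y/T dKD+FGF2. It fell 2.04-fold (log2 fold change -1.03 ± 0.04, adjusted p = 2.8e-12) although it did not move detectably with FGF2 (0.00 ± 0.04, 95% interval -0.08 to 0.09). Prelp, a leucine-rich proteoglycan, showed the same order (165 ± 12.4, 172 ± 5.15 and 69.5 ± 4.41 CPM, log2 fold change -1.25 ± 0.06, adjusted p = 1.5e-11). Perp, a p53 target of cell junctions, was at 11.1, 10.7 and 9.90 CPM in vehicle and 2.09, 1.79 and 2.10 CPM in Y/T dKD+FGF2 (log2 fold change -2.40 ± 0.17, adjusted p = 3.4e-09). Sema7a, a membrane semaphorin, rose from 5.19, 8.70 and 8.48 to 24.3, 30.2 and 26.4 CPM (log2 fold change 1.84 ± 0.14, adjusted p = 1.1e-08).

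In the wider matrix, proteoglycans and collagen enzymes had more lower than higher members. Proteoglycans, matricellular and elastic fibre proteins had 18 of 33 members lower and 7 higher than in vehicle (median -0.38). Dcn, which encodes decorin, fell from 604 ± 35.1 to 222 ± 8.43 CPM (log2 fold change -1.44 ± 0.07, adjusted p = 2.5e-11), while Acan, the cartilage proteoglycan aggrecan, rose from 11.7 ± 2.21 to 41.1 ± 2.17 (log2 fold change 1.80 ± 0.11, adjusted p = 6.6e-10) and Sparcl1 rose too (1.26 ± 0.09). Enzymes that fold and cross-link collagen had 15 of 25 lower and 6 higher (median -0.19), with Loxl4 down (-1.17 ± 0.05) and Loxl1 and Loxl3 up (0.59 ± 0.06 and 0.41 ± 0.05). Other collagens had 10 of 23 lower and 7 higher (median -0.07, which was -0.0338 without Y/T dKD+FGF2 replicate 1 and -0.11 without replicate 2). Col11a2 fell most (-2.31 ± 0.19), followed by Col8a1 (-1.16 ± 0.04), and Col18a1 and Col9a2 rose (1.48 ± 0.06 and 1.36 ± 0.14). Matrix proteases and their inhibitors had more higher than lower members, with 13 of 24 higher and 5 lower (median 0.25, 0.11 without the filter on low counts), against 7 higher and 10 lower in Ctrl+FGF2. Serpine2, an inhibitor of serine proteases, rose from 47.7 ± 1.06 to 178 ± 6.43 CPM (log2 fold change 1.90 ± 0.12, adjusted p = 8.3e-10), Mmp9 rose (2.18 ± 0.31), and the plasminogen activator gene Plat fell (-0.75 ± 0.05). Integrins and laminins were split, 10 higher and 11 lower of 27. Itgb3 and Itga7 rose (1.04 ± 0.08 and 1.38 ± 0.18) and Lamb3 fell (-2.12 ± 0.23). Actin and contractile genes had 20 of 32 higher and 3 lower (median 0.28), as in Ctrl+FGF2 (20 and 4, median 0.26), with Smtn and Lmod1 up (0.72 ± 0.04 and 0.55 ± 0.06) and Fhl1 and Csrp2 down (-2.52 ± 0.15 and -0.40 ± 0.05).

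Targets of Yap and Taz moved in both directions against vehicle, with 10 of 25 higher, 9 lower and a median of 0.01. The targets Ccn2 and F3 were above vehicle in Y/T dKD+FGF2 cells (442 ± 70.2 to 556 ± 34.6 CPM, log2 fold change 0.33 ± 0.08, adjusted p = 0.00296 for Ccn2, and 0.45 ± 0.06 for F3), although both were lower with FGF2 alone (-0.27 ± 0.08 and -0.48 ± 0.06). Nt5e rose (0.37 ± 0.04), and Fjx1 and Birc5, the latter also a mitotic gene, fell (-1.50 ± 0.23 and -0.90 ± 0.22). In the Hippo pathway itself, 9 of 26 members were higher and 5 lower (53.8% called, against 41.8% of all genes). Besides the siRNA targets, the named changes were rises of Amot and Tead2 (0.90 ± 0.07 and 0.76 ± 0.05). Of 30 NC and stemness factors, 18 were tested and 8 had 0 counts in the 6 libraries. Among the 18 tested, 10 were higher and 3 lower (median 0.35). The separate NC markers showed no such shift, with 6 of 14 tested higher and 5 lower (median 0.02). Hmga2, a chromatin protein of immature cells, rose from 141, 182 and 157 to 374, 408 and 404 CPM (log2 fold change 1.30 ± 0.07, adjusted p = 6.8e-11), Sox2 rose from 12.9, 10.3 and 13.8 to 18.2, 17.0 and 17.7 CPM (log2 fold change 0.52 ± 0.11, adjusted p = 7.0e-04), and Nes rose (1.22 ± 0.23). Klf4 fell from 58.8, 51.3 and 49.7 to 23.0, 23.0 and 22.1 CPM (log2 fold change -1.23 ± 0.08, adjusted p = 6.5e-10), below Ctrl+FGF2 as well (-0.30 ± 0.08), and Snai2 fell (-0.33 ± 0.05).

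Signalling genes moved in both directions. Called members made up 61.1% to 75.9% of these lists, against 41.8% of all genes. Among IGF, PDGF, HGF and Vegf factors, 10 of 29 were higher and 12 lower. Igf1, a growth factor made by osteoblasts, was at 747, 701 and 707 CPM in vehicle, 234, 245 and 243 CPM with FGF2 and 238, 260.2 and 249 CPM in Y/T dKD+FGF2, and it fell against vehicle (log2 fold change -1.53 ± 0.04, adjusted p = 6.7e-14). The groups with FGF2 were not detectably apart (95% interval of their log2 difference -0.04 to 0.14). Pdgfd fell as well (-1.33 ± 0.16). In the Wnt pathway 11 of 26 were lower and 5 higher. Axin2, a direct target of Wnt signalling, fell from 6.14, 8.85 and 8.73 to 4.26, 4.36 and 3.15 CPM (log2 fold change -1.01 ± 0.17, adjusted p = 1.3e-04), as did the agonist gene Rspo2 (-1.89 ± 0.22), whereas the ligand gene Wnt10b and the inhibitor gene Notum rose (0.86 ± 0.17 and 0.64 ± 0.11). BMP and TGF-beta genes were even, 9 higher and 9 lower of 29, with Bmp3 and Bmp4 lower (-1.22 ± 0.08 and -0.89 ± 0.07) and Chrdl1 and Ltbp2 higher (0.80 ± 0.07 and 0.78 ± 0.08). Notch, Hedgehog and retinoic acid genes had 10 of 24 higher and 6 lower, with Notch1 up (0.60 ± 0.10) and Ptch1, a target of Hedgehog, down (-0.73 ± 0.07). Guidance genes had 18 of 39 lower and 8 higher, with Sema3c and Sema3d down (-1.71 ± 0.07 and -1.51 ± 0.10) and Efna4 up (0.79 ± 0.13). Chemokines, cytokines and complement had 7 of 18 higher and 4 lower. Cxcl12, a chemokine of stromal cells, was at 76.3, 104 and 86.3 CPM in vehicle and 405, 375 and 411 CPM in Y/T dKD+FGF2 (log2 fold change 2.15 ± 0.07, adjusted p = 4.4e-13), the level of Ctrl+FGF2 (421, 414 and 401 CPM). Ccl8 rose (2.24 ± 0.13), and the complement genes C1s1 and C1ra fell (-0.84 ± 0.05 and -0.60 ± 0.05).

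Metabolic and housekeeping lists had small medians. Against 41.8% of all genes, 46.3% of oxidative phosphorylation, 54.1% of lysosome and 55.6% of p53 and BCL2 members were called. The shares were 70.4% for glycolysis and 75.8% for ER genes. Oxidative phosphorylation had 18 of 41 members higher and 1 lower (median 0.10), against 26 and none in Ctrl+FGF2, with Ndufs7 and Atp5d up (0.50 ± 0.09 and 0.38 ± 0.06) and Atp5c1 down (-0.21 ± 0.04). Glycolysis and hypoxia genes had 16 of 27 lower and 3 higher (median -0.17). The glucose transporter genes Slc2a1 and Slc2a3 were among the higher ones (0.39 ± 0.07 and 0.77 ± 0.17), and Ndrg1 and Pfkfb3 fell (-1.11 ± 0.07 and -1.10 ± 0.11). Chaperones and the secretory pathway of the ER had 18 of 33 lower and 7 higher (median -0.13), with 19 higher than in Ctrl+FGF2. Creb3l1, a factor that drives collagen secretion in osteoblasts, fell from 151 ± 11.8 to 62.1 ± 1.59 CPM (log2 fold change -1.28 ± 0.05, adjusted p = 6.6e-12), Herpud1 fell (-0.88 ± 0.08), and Sdf2l1 and Manf rose (0.54 ± 0.11 and 0.32 ± 0.05). Of p53 targets and BCL2 family genes, 9 of 27 were higher and 6 lower, and the proapoptotic genes Bmf and Bcl2l11 both rose (0.94 ± 0.05 and 0.94 ± 0.05), while Gtse1, a regulator of p53 in dividing cells, fell (-0.97 ± 0.23). Lysosome and autophagy genes had 12 of 37 higher and 8 lower, with Ctsd up (0.56 ± 0.04) and Atp6v1h down (-0.30 ± 0.05). Cln3 rose (0.43 ± 0.13) and lost its call without Ctrl+vehicle replicate 1 or Y/T dKD+FGF2 replicate 2.

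The same contrast at d2.5 had a different shape. A fit of all 18 libraries tested the difference between the days, and 8420 of 14198 genes (59.3%) were called. Of the genes that the study names, the contrast of Yap1 did not differ detectably between the days (difference 0.11, adjusted p = 0.174), whereas Wwtr1 was below vehicle at d5 and not detectably so at d2.5 (difference -0.85, adjusted p = 3.5e-14). Gdpd5, a phosphodiesterase, was 3.29 ± 0.311 CPM in vehicle and 4.57 ± 0.784 CPM in Y/T dKD+FGF2 at d5 (log2 fold change 0.48 ± 0.18, adjusted p = 0.0463), a call that was lost without Ctrl+vehicle replicate 1 or 3 or Y/T dKD+FGF2 replicate 1 or 2, and it did not differ detectably between the days (difference 0.27, adjusted p = 0.304). The labels name the batch by the day, so day and batch cannot be told apart.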

How the data were processed

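Poly(A) RNA of O9-1 cells was sequenced by the authors, who deposited raw counts per gene and library with no normalization, unstranded and for either strand. The submitters' processing notes name FastQC, STAR, Picard, featureCounts and mm10 without roles or versions, and the layout is that of STAR gene counts. The reverse-strand column was used (96.3% to 96.6% of stranded counts in the 6 libraries). Entries that name no gene (27.0% to 33.4% of a library) were left out. Of 55335 identifiers, 55154 matched GENCODE M21 on GRCm38 without their version.

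The 9 libraries of d5 were fitted in edgeR 4.0.16 (R 4.3.3; TMM, filterByExpr, quasi-likelihood test, Benjamini-Hochberg adjustment over all genes), and all adjusted p-values come from it. The SE was taken from the log2 fold change and the F statistic, and intervals are 95%. In simulated counts (13035 genes), 67, 67 and 66 genes were changed 1.5-, 2- and 4-fold in Y/T dKD+FGF2, and Ctrl+FGF2 was drawn at vehicle levels. Of these changes 83.6%, 92.5% and 95.5% were recovered, and 4.23% of calls were false. The real data had 41.8% of genes called, so these rates may not carry over. Genes named were the siRNA targets, genes the study names, the 8 largest rises and falls, the 4 largest FGF2 rises and falls per class, and the 2 largest rises and falls per list, at a mean log2 CPM of at least 1. The members and the 32 hand-written lists were chosen with earlier results of these data known. Motifs were counted in RefSeq promoter windows (GRCm38.p6). The alternatives were other normalizations, DESeq2 1.42.0, other filters, fits of 6 or 18 libraries, a replicate block, other limits, unstranded counts and leaving out each library. Columns for the other strand were not used. Some genes that the rule names are not reported here.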

Additional observations from a re-analysis of the deposited data

Results flagged for a closer look

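In total, 10 genes that the study names besides its siRNA targets had a log2 fold change of Y/T dKD+FGF2 against Ctrl+vehicle that differed between d5 and d2.5. The test was that of the difference in the fit of all 18 libraries. Sox2, Gdpd5, Axin2, Cdk4 and Ccn2, also named there, were not called. Over all genes tested, 8420 of 14198 (59.3%) were called, so such a difference was common and not particular to these genes. The siRNA target Wwtr1 also differed (-0.85, adjusted p = 3.5e-14). Differences below are d5 minus d2.5, and day and batch cannot be told apart.

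The bone genes among them were below vehicle at d2.5 and nearer to it or above it at d5, unlike Dmp1, which was above vehicle on both days (6.37 at d2.5, difference -1.27, adjusted p = 1.4e-04). Runx2 went from -0.73 at d2.5 to 0.54 at d5 (difference 1.27, adjusted p = 8.3e-16), Sp7 from -2.34 at d2.5 to 0.97 at d5 (3.30, adjusted p = 1.8e-16) and Ibsp from -1.39 at d2.5 to 0.51 at d5 (1.89, adjusted p = 2.1e-10), so that these 3 changed sign. Col1a1 went from -2.65 at d2.5 to -0.55 at d5 (2.11, adjusted p = 1.3e-23). Alpl had 1489, 1971 and 1497 counts in the Ctrl+vehicle libraries and 1, 3 and 0 counts in the Y/T dKD+FGF2 libraries of d2.5, against 1679, 1836 and 1839 and 1015, 1224 and 903 counts at d5. Its fitted difference of 9.16, adjusted p = 2.5e-20 rests on those near-zero counts and has no firm size. Bglap, with 15, 10 and 5 against 0, 1 and 0 counts at d2.5, had a fitted difference of 3.78, adjusted p = 6.5e-04, of equally uncertain size.

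Mki67, Klf4, Myc and Fosl1 went the other way. Mki67 was above vehicle at d2.5 and below it at d5 (1.17 at d2.5 and -1.11 at d5, difference -2.28, adjusted p = 1.1e-11), with 2693, 3068 and 2461 against 5187, 5400 and 5600 counts at d2.5 and 1077, 766 and 976 against 402, 518 and 412 counts at d5. Klf4 also changed sign (0.92 at d2.5 and -1.23 at d5, difference -2.16, adjusted p = 1.6e-17). Myc went from 1.09 at d2.5 to -0.23 at d5 (-1.32, adjusted p = 4.7e-12), and Fosl1 from 2.003 at d2.5 to 0.93 at d5 (-1.07, adjusted p = 2.3e-05), staying above vehicle on both days. The part of batch in these differences was not tested.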

How the results depend on the processing

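Of the 2721 values of the 161 named genes under the alternatives, 2656 kept their direction and side of the threshold, 49 lost the call, 16 gained it and none reversed. Calls numbered 4227 with DESeq2. With 3 libraries a group and counts near 1 CPM, small differences stayed below detection.

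With the fold limit, 256 genes were higher and 386 lower. Taking every gene called for FGF2, 3643 lay away, 290 beyond and 1849 near vehicle, with 496 unplaced, and with a limit of 0.25 only 2 of the 771 lay near vehicle. Unplaced genes numbered 304 without a filter and 67 with at least 10 counts in every library, since fewer genes were then tested. Medians with DESeq2 were -0.18 for osteoblast transcription factors, 0.13 for matrix proteases, 0.21 for actin genes and 0.087 for Notch, Hedgehog and retinoic acid genes. Without a filter they were -0.17, 0.11 and 0.22 for the first 3, as more members entered. FGF receptors had -0.0575 with at least 10 counts in every library.

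Leaving out each library gave medians of -0.0700 to -0.0043 for FGF receptors, -0.23 to -0.16 for collagen enzymes, -0.0651 to -0.0230 for IGF, PDGF, HGF and Vegf factors, -0.13 to 0.0310 for interferon-stimulated genes, 0.10 to 0.15 for p53 targets, -0.44 to -0.23 for proteoglycans, -0.0777 to 0.0646 for integrins, -0.26 to -0.15 for guidance genes, -0.56 to -0.48 for fatty acid genes and 0.11 to 0.28 for chemokines. These ranges take all members tested without the library, and over the members tested with all libraries they were -0.29 to -0.16 for guidance genes and 0.17 to 0.34 for chemokines. Small medians also moved by over 1.5 times, with -0.17 to -0.0276 for DNA replication, -0.11 to -0.0338 for other collagens, -0.205 to -0.0995 for ribosome biogenesis, -0.12 to -0.0237 for BMP and TGF-beta genes, -0.16 to -0.0686 for Wnt genes, 0.0301 to 0.0693 for Hippo genes, 0.0052 to 0.0577 for Yap and Taz targets, 0.0178 to 0.0546 for lysosome genes and 0.0374 to 0.11 for osteoblast transcription factors.

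Same-numbered libraries of the compared groups did not deviate together (r between -0.03 and 0.00). Those of Ctrl+vehicle and Ctrl+FGF2 had r = 0.145, 0.157 and 0.0273, not all above 0.1, so the numbers were not taken as pairs. With the number as a replicate block, 5681 genes were called and 98.8% of the calls were kept, and 8372 genes differed between days.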
